A study of Homo sapiens with 8 samples.

Results

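PAX3-FOXO1 is the chimeric transcription factor that defines fusion-positive alveolar rhabdomyosarcoma, and 10 genes associated with it were followed here through a knockdown of G9a. They were FOXO1, FGFR4, ALK, RASSF4, KCNN3, NOS1, CDH3, TFAP2B, OLIG2 and PIPOX, matched by symbol among 60234 listed genes. Among repeated symbols the Ensembl identifier was to be chosen by its mean level over the 8 libraries, but each symbol stood on 1 identifier. In GENCODE 29 the genes lie on 10 different chromosomes, in the order given on 13, 5, 2, 10, 1, 12, 16, 6, 21 and 17. FOXO1 gives the fusion transcript its 3′ end, and the other 9 are reported targets of the fusion. The genes were proposed with results of these libraries in view, so a count over them is a description and not independent evidence of a direction.

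All 8 libraries came from Rh41, an established human cell line that derives from alveolar rhabdomyosarcoma and carries the fusion. The fusion transcript was not measured on its own in any library. The labels put 4 libraries (CTR_rep1 to 4) under a control knockdown and 4 (siG9a_rep1 to 4) under siG9a, while the series title speaks of shG9a. The control reagent, the time after knockdown and what a replicate number stands for are not given in the labels. G9a, encoded by EHMT2, is a histone methyltransferase that places methyl groups on lysine 9 of histone H3, a mark linked to gene silencing. RNA was measured by QuantSeq, which reads the 3′ ends of polyadenylated transcripts, so a gene's level does not scale with transcript length. Levels are in CPM, the reads of a gene scaled to a common total of reads assigned to genes.

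In the fusion, the DNA-binding paired domain and homeodomain of PAX3 are joined to the transactivation domain of FOXO1. The chimera is transcribed from the PAX3 promoter and ends with the 3′ end of FOXO1. It binds mostly at enhancers far from promoters, often beside E-box sites occupied by MYOD1, MYOG and MYCN, and it keeps muscle progenitor and receptor kinase genes active in the tumour. Reads counted for FOXO1 therefore hold the fusion and the unfused gene together, and reads counted for PAX3 come from unfused PAX3.

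Promoter windows are shown for 4 of the 7 genes that fell in the paired fit described below, each holding a motif that was searched. Windows of TFAP2B and PIPOX, which also fell, held none. The windows of RASSF4, ALK and KCNN3 share an E-box, and that of NOS1 holds a paired domain core. Each window runs from 250 bases before to 50 bases after a RefSeq transcription start (build GRCh38.p14), on the strand of the gene, and capitals mark matches to the motifs named below.
RASSF4 (chr10:44959552-44959851, plus strand): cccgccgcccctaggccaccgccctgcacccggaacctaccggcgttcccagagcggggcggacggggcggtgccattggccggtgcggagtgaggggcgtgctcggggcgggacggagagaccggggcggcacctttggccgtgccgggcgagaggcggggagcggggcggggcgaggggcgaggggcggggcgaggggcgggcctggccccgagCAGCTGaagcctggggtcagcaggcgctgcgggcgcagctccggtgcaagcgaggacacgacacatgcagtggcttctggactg
ALK (chr2:29921537-29921836, minus strand): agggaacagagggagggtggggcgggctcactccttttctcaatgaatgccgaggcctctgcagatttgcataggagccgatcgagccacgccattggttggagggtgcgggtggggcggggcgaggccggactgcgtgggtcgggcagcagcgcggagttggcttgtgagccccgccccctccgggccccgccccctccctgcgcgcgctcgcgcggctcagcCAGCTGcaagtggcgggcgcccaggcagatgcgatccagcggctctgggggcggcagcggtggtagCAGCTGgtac
KCNN3 (chr1:154870232-154870531, minus strand): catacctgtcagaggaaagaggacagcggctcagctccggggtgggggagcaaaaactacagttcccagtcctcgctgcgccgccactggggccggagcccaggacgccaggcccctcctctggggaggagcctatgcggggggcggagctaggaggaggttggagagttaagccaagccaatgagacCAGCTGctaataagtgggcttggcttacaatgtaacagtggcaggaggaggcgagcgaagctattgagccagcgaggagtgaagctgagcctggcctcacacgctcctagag
NOS1 (chr12:117309361-117309660, minus strand): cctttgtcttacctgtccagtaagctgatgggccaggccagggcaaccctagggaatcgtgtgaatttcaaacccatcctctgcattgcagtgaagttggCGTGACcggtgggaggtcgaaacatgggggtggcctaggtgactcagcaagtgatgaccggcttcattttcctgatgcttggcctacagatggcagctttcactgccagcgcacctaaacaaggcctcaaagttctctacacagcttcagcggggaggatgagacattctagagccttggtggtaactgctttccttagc

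The motifs searched, on both strands, were the palindromic homeodomain sites TAATNNATTA and TAATNNNATTA, the paired domain core GTCACG, the E-boxes CAGCTG and CACCTG, and the forkhead site TGTTTAC. RefSeq gave 12 windows for 8 of the 10 genes, with none for CDH3 and OLIG2. The homeodomain sites were found in none of the 12, where 0.450% and 0.365% of all 35116 windows hold them. NOS1 held GTCACG 150 bases before its start, on the opposite strand, a motif present in 9.02% of all windows. CAGCTG, present in 17.9% of windows, was found in windows of KCNN3, ALK and RASSF4, and in RASSF4 it lies 34 bases before the start. CACCTG, present in 20.6% of windows, was found in windows of KCNN3 and FGFR4 that are not shown. A second KCNN3 window, not shown, also held TGTTTAC (3.42% of windows). The windows of FOXO1, TFAP2B and PIPOX held none of the motifs. Finds by gene are not on the same footing as a share of windows, since FGFR4, ALK and KCNN3 have several windows each. The windows differed widely in base composition, from 2 CpG sites in windows of FGFR4, ALK and KCNN3 that are not shown to 36 in that of RASSF4, around a median of 14 over all windows. Of the windows shown, NOS1 had 7 CpG sites, KCNN3 13 and ALK 28.

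Libraries held 1458825 to 1938665 reads, so 1 read was worth 0.516 to 0.685 CPM. EHMT2, the targeted gene, stood on 7 identifiers, of which the one with the highest mean level was used. It ranged from 57.6 to 88.3 CPM in control and from 19.6 to 58.5 CPM in siG9a, and held 34.0% to 66.3% of its matched control by replicate number. Its limma adjusted p was 0.191, and 0.000472 with the replicate number as a block. The libraries of replicate 3 stood apart in both groups. The sum of 8 skeletal muscle markers was 242 CPM in control replicate 3 and 211 CPM in siG9a replicate 3, against 826 to 1649 CPM in the other 6 libraries, with MYF5 at 0 everywhere. Conversely, the sum of 6 neural markers was 9606 and 8936 CPM there against 187 to 2953 CPM elsewhere. Nearly all of it came from the neurofilament genes NEFM and NEFL, and each remaining marker of that list averaged at most 2.035 CPM. DCX, a neuronal gene outside that list, went the other way among the controls, at 8.61 CPM in replicate 3 against 43.1 to 74.7 CPM. The sum of 5 epithelial markers was 75.6 and 44.0 CPM in the replicate 3 libraries against 10.3 to 32.7 CPM. Fibroblast markers summed to 118 and 51.9 CPM there against 146 to 406 CPM, with DCN and LUM at or under 3 reads in every library. Endothelial and blood markers summed to at most 2.08 and 3.65 CPM. Between the groups, the share of reads from mitochondrial genes was higher in siG9a in 4 of 4 numbers, going from 9.18% to 13.7%, from 5.58% to 11.4%, from 4.68% to 6.53% and from 4.59% to 5.21% in order of number. What part these shifts had in the results was not tested, and in bulk RNA fewer cells of a type and less RNA per cell cannot be told apart. Results are therefore given with and without replicate 3.

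The comparison of siG9a with control asked how the 10 genes stood after a partial knockdown of EHMT2 RNA. Without a term for replicate number, limma on log2(CPM + 1) called 0 of 15092 genes tested (0%) and so 0 of the 10, with 1880 genes at an unadjusted p under 0.05. On reads recovered from the CPM, edgeR called 0 genes without the block and DESeq2 called 292, among them 3 of the 10. All 10 genes passed the filter of a mean of 1 CPM, CDH3 with 1.39 CPM and OLIG2 with 3.61 CPM. Libraries with the same number deviated together from their group means, although control replicate 2 correlated more with siG9a replicate 4 (0.144) than with its own number (0.104). With the number as a block, called the paired fit below, 6.52% of all genes were lower and 4.86% higher at an adjusted p under 0.05. In the paired fit 7 of the 10 genes fell, 0 rose and 3 did not pass the threshold. The 7 were RASSF4, ALK, KCNN3, NOS1, PIPOX, TFAP2B and FGFR4, and the others were FOXO1, OLIG2 and CDH3. The median log2 change of the 10 genes was −0.91, beside 0.015 over all genes tested.

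**Figure D1:**
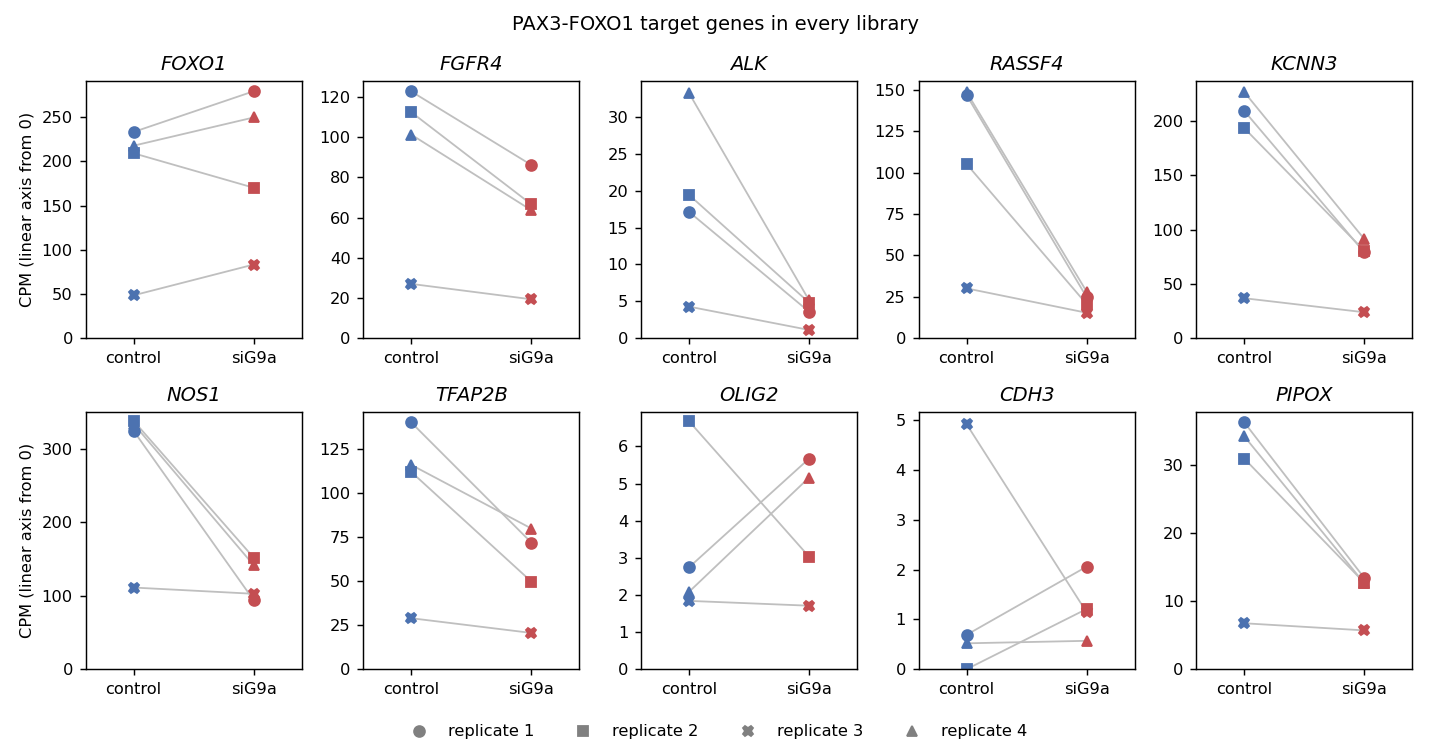
CPM (vertical axes, linear from 0) of the 10 genes in the 4 control (blue) and 4 siG9a (red) libraries, with lines joining libraries of the same replicate number. In 7 panels all 4 lines go down, FOXO1 goes up in 3 of 4, and the crosses of replicate 3 lie lowest among the controls for every gene but CDH3.

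FOXO1 (ENSG00000150907), a forkhead factor that insulin signalling keeps out of the nucleus and whose 3′ end the fusion uses, measured 233, 209, 48.6 and 218 CPM in control replicates 1 to 4. In siG9a it measured 279, 170.1, 83.4 and 249 CPM. It was the second most abundant of the 10 genes by mean level, after NOS1, and the groups overlapped widely. FOXO1 was higher in 3 of 4 replicate numbers, with a log2 change of 0.23 ± 0.16 (SE) at a limma adjusted p of 0.398 in the paired fit. Leaving out both replicate 3 libraries gave a log2 change of 0.053, and leaving out control replicate 3 alone turned the sign, to −0.31.

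Unfused PAX3, the other partner, was low in both groups (control 13.4 ± 6.75 CPM, siG9a 11.96 ± 5.54 CPM, SD, n = 4 each), with a log2 change of −0.077 and a limma adjusted p of 0.907 in the paired fit. MYOD1, the myogenic master regulator that binds beside the fusion, was at 658 ± 375 and 599 ± 331 CPM (SD, n = 4 each), with a limma adjusted p of 0.935 in the paired fit. Neither partner of the fusion nor MYOD1 therefore passed the threshold, and the direction of PAX3 and MYOD1 changed with the libraries left out.

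RASSF4 (ENSG00000107551), a scaffold of the RAS association domain family that restrains the Hippo kinase MST1 in this tumour, had the lowest log2 change of the 10 genes on the log2(CPM + 1) scale, followed by ALK. That order turned with a pseudocount of 0.1 (−2.07 for RASSF4 and −2.17 for ALK), by edgeR and DESeq2, and with some libraries left out. Its control libraries measured 147, 105, 30.1 and 148.5 CPM and its siG9a libraries 24.8, 20.6, 15.4 and 28.1 CPM. Every siG9a library lay below every control library, although the counting interval of siG9a replicate 4 (95% Wilson, 21.3 to 37.1 CPM) overlapped that of control replicate 3 (22.8 to 39.8 CPM). This was the only one of the 10 genes whose groups did not overlap downward, where 3.45% of all genes tested did so. The log2 change was −2.03 ± 0.22 (SE) at a limma adjusted p of 1.62e-06 in the paired fit and 0.114 without the block. An exact two-sided permutation test of the 8 values gave p = 0.0286, the smallest that 4 against 4 can reach, and for the other 6 fallen genes it gave 0.0857 to 0.314. Without replicate 3 the log2 change was −2.39 and RASSF4 passed also without the block (limma adjusted p 9.90e-05).

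The receptor tyrosine kinases were ALK and FGFR4. ALK (ENSG00000171094), a receptor for the ALKAL ligands that is normally active in the developing nervous system, measured 17.1, 19.4, 4.30 and 33.2 CPM in control and 3.61, 4.84, 1.14 and 5.16 CPM in siG9a. Only siG9a replicates 2 and 4 reached above control replicate 3, and the level rested on few reads, with 2 in siG9a replicate 3 (95% Wilson interval 0.313 to 4.16 CPM, counting error only). ALK had a log2 change of −1.89 ± 0.34 (SE) at a limma adjusted p of 0.000658 in the paired fit and 0.210 without the block.

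FGFR4 (ENSG00000160867), a fibroblast growth factor receptor of muscle progenitors that the fusion activates through an enhancer, measured 123, 112, 27.1 and 101 CPM in control. In siG9a it measured 86.1, 66.6, 19.4 and 63.7 CPM. Outside replicate 3 the lowest control library lay above the highest siG9a library. The log2 change of −0.59 ± 0.17 (SE) came at a limma adjusted p of 0.0229 in the paired fit and 0.694 without the block. Leaving out pair 1, 2 or 4 in the paired fit ended that call (adjusted p 0.0643, 0.164 and 0.0573).

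KCNN3 and NOS1 are genes of excitable cells. KCNN3 (ENSG00000143603) encodes SK3, a small-conductance potassium channel opened by calcium. It measured 209, 193, 36.9 and 226 CPM in control and 78.9, 80.5, 23.98 and 91.2 CPM in siG9a. Outside replicate 3 the libraries of each group lay close together, and those of siG9a were all below those of control. The log2 change was −1.14 ± 0.17 (SE) at a limma adjusted p of 8.06e-05 in the paired fit and 0.436 without the block.

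NOS1 (ENSG00000089250), the neuronal nitric oxide synthase that in muscle is anchored to the dystrophin complex, was the most abundant of the 10 genes. Control libraries measured 325, 338, 111 and 334 CPM and siG9a libraries 93.9, 152, 103 and 142 CPM. Control replicate 3 lay inside the siG9a range, and the siG9a libraries, replicate 3 included, did not fall below 93.9 CPM. NOS1 had a log2 change of −1.07 ± 0.19 (SE) at a limma adjusted p of 0.000451 in the paired fit and 0.238 without the block. Leaving out replicate 3 moved the change to −1.39.

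Of the transcription factors, TFAP2B (ENSG00000008196), an AP-2 factor of neural crest used as an immunohistochemical marker of fusion-positive tumours, measured 139.8, 112, 28.9 and 116 CPM in control. In siG9a it measured 71.7, 49.6, 20.55 and 79.7 CPM, below the control library of the same number each time. Its log2 change was −0.78 ± 0.18 (SE) at a limma adjusted p of 0.00481 in the paired fit and 0.567 without the block. Leaving out pair 2 ended that call (adjusted p 0.0898).

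OLIG2 (ENSG00000205927), a basic helix-loop-helix factor of oligodendrocyte and motor neuron precursors that also marks fusion-positive tumours, was near the detection limit. It gave 4, 11, 3 and 4 reads in control and 11, 5, 3 and 9 reads in siG9a. The groups covered the same range, with 2 numbers higher and 2 lower, and the limma adjusted p was 0.814 in the paired fit.

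PIPOX (ENSG00000179761), a peroxisomal enzyme that oxidises sarcosine and pipecolate, measured 36.3, 30.99, 6.76 and 34.3 CPM in control and 13.4, 12.7, 5.71 and 12.6 CPM in siG9a. Only control replicate 3 came down to the siG9a range. The log2 change was −1.04 ± 0.28 (SE) at a limma adjusted p of 0.0149 in the paired fit and 0.409 without the block. Leaving out pair 1, 2 or 4 ended that call (adjusted p 0.0769 to 0.112). In GENCODE 29 the exons of PIPOX overlap those of PHF12 on the opposite strand, and the use of strand in counting is not stated. PHF12 had a control mean of 12.6 ± 1.76 CPM and a siG9a mean of 20.2 ± 5.26 CPM (SD, n = 4 each), higher in 4 of 4 numbers, with a limma adjusted p of 0.140 in the paired fit. RASSF4 likewise overlaps DEPP1, whose mean was 1.69 CPM.

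CDH3 (ENSG00000062038), or P-cadherin, an adhesion molecule of epithelia that the fusion has been reported to induce, was barely detected. It gave 1, 0, 8 and 1 reads in control and 4, 2, 2 and 1 reads in siG9a, and the 0 in control replicate 2 allows a level of up to 1.82 CPM, that of 3 reads. The highest value was that of control replicate 3, at 4.92 CPM, the opposite of the other genes. No difference was detectable at this depth (limma adjusted p 0.894 in the paired fit), and the sign of the change depended on the setting.

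Within replicate numbers the 7 genes that fell in the paired fit were lower in 4 of 4, as were 15.3% of all genes tested. That fit had picked the 7 genes from these same differences, so a fall in 4 of 4 was largely set beforehand. The siG9a library held 16.9% (RASSF4) to 70.2% (FGFR4) of the control level in replicate 1, with a median of 36.9% over the 7 genes. The medians were 41.7% in replicate 2 and 40.3% in replicate 4. In replicate 3 the range was 26.5% (ALK) to 92.3% (NOS1) with a median of 71.1%, so each of the 7 genes had its highest percent there. FOXO1 measured 119.7%, 81.4%, 172% and 115% of its control in replicates 1 to 4.

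**Figure D2:**
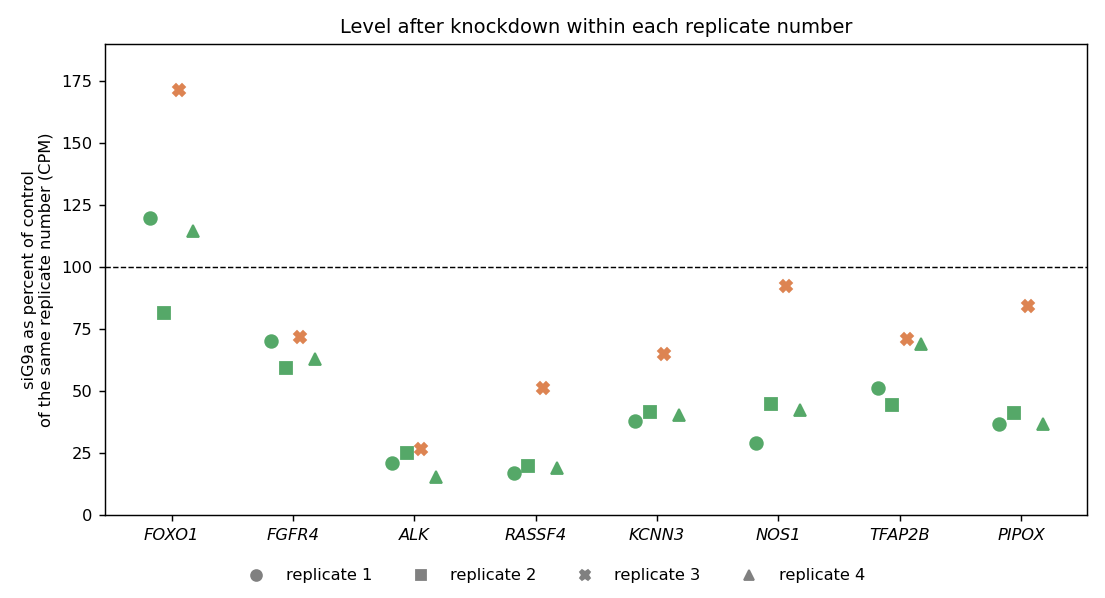
CPM in siG9a as a percent of the control sharing its replicate number (vertical axis, linear) for FOXO1 and the 7 genes that fell in the paired fit, with replicate 3 in orange and the dashed line at no change. Replicate 3 gives the highest percent for each of the 8 genes, 172% for FOXO1 and 92.3% for NOS1, and every point of the 7 targets lies below the line.

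FOXO1 and the 7 genes that fell were also low together in 1 control library. In control replicate 3, FOXO1 stood at 22.1% of the mean of the other 3 controls. The 7 genes above stood at 17.6% (KCNN3) to 33.5% (NOS1), while CDH3 was at 4.92 CPM there against 0 to 0.69 CPM in the other controls. OLIG2, at 48.0%, rested on 3 reads there against 4 to 11 in the other controls, with overlapping counting intervals. Of the 10 genes, 9 had their lowest control value in replicate 3, as had 33.0% of all genes tested. In siG9a replicate 3 the 7 genes stood at 25.1% (ALK) to 79.6% (NOS1) of the other siG9a libraries and FOXO1 at 35.8%, and 8 of the 10 had their lowest value there, beside 31.1% of all genes. MYOD1 was lower still in that number, at 11.3% in control and 16.9% in siG9a.

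Because FOXO1 and the 7 genes were low together in control replicate 3, each target was also expressed as a percent of FOXO1 in the same library, a measure chosen after the values were seen. The level of RASSF4 was 62.9%, 50.3%, 62.0% and 68.3% of FOXO1 in control and 8.87%, 12.1%, 18.5% and 11.3% in siG9a. For RASSF4, as for ALK and TFAP2B, control replicate 3 lay on this scale inside the range of the other controls. It lay outside that range for FGFR4 (55.7% against 46.5% to 53.8%), KCNN3 (76.0% against 89.7% to 104%), PIPOX (13.9% against 14.8% to 15.8%) and NOS1 (229% against 139% to 162%). TFAP2B had 60.0%, 53.5%, 59.5% and 53.2% in control and 25.7%, 29.2%, 24.7% and 31.96% in siG9a, and PIPOX 13.9% to 15.8% in control and 4.81% to 7.47% in siG9a. KCNN3 went from 76.0% to 104% in control to 28.3% to 47.3% in siG9a, and FGFR4 from 46.5% to 55.7% to 23.3% to 39.1%. ALK went from 7.35% to 15.3% in control to 1.29% to 2.85% in siG9a.

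NOS1 spread most, at 139% to 229% in control and 33.6% to 123% in siG9a. For all 7 genes the siG9a values lay below the control values without overlap, as they did for 4.22% of all genes set against FOXO1 in the same way. In CPM only RASSF4 was without overlap. FOXO1 itself was higher in siG9a in 3 of 4 numbers, at 172% of control in replicate 3, and a higher denominator lowers these ratios. The 7 had been picked by their fall in these same libraries, so the shares given here are a description and not a test. OLIG2 and CDH3 overlapped. With unfused PAX3 as the denominator 5 of the 7 were without overlap (2.17% of all genes), FGFR4 and NOS1 being the exceptions. With MYOD1 it was 3 of the 7 (1.47%), namely ALK, RASSF4 and KCNN3.

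**Figure D3:**
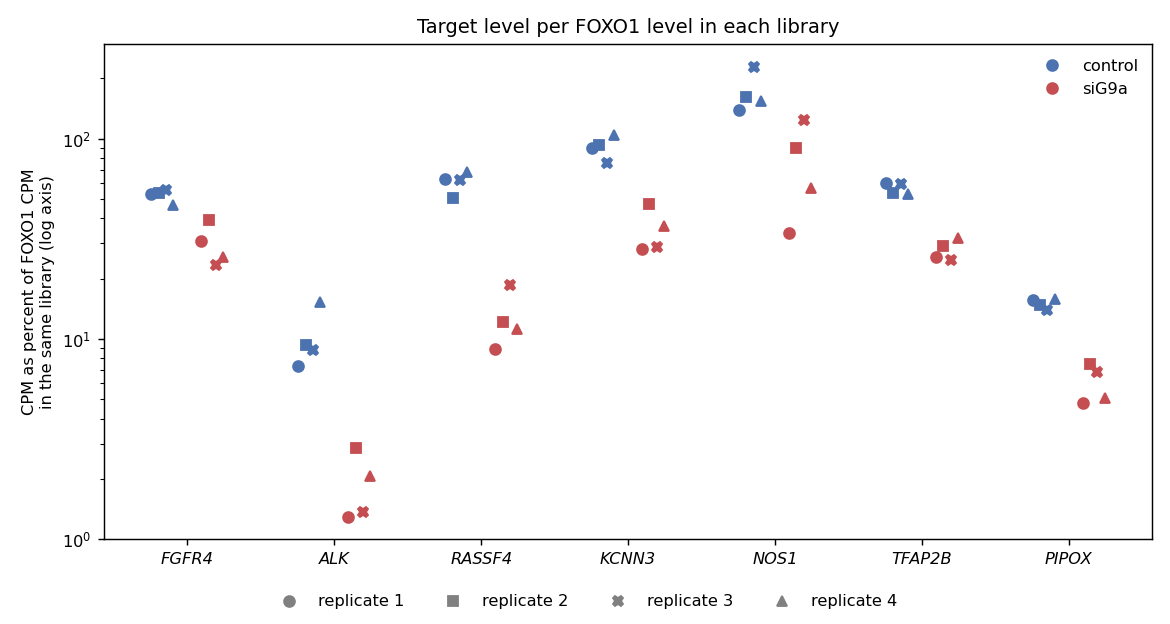
CPM of the 7 fallen targets as a percent of FOXO1 CPM in the same library (vertical axis, log scale), control in blue and siG9a in red, with one symbol per replicate number. For each gene the 4 red points lie below the 4 blue points, and the crosses of control replicate 3 lie inside the range of the other controls for RASSF4, ALK and TFAP2B and farthest outside it for NOS1 (229%).

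Leaving out both replicate 3 libraries, limma called 5 of the 10 genes lower without the block, namely RASSF4, KCNN3, NOS1, ALK and PIPOX, where 1.98% of all genes were called lower. With the block it called 7 lower, beside 4.96% of all genes, with CDH3 below the filter on low values. All 7 genes were then lower without overlap between the 3 control and 3 siG9a libraries, as were 11.7% of all genes. Since the 7 had been picked by their fall in these libraries, that share is likewise only a description. The adjusted p of FGFR4 and TFAP2B without the block was 0.143 and 0.0578. Leaving out control replicate 3 alone called the same 5 genes lower without the block, where 1.44% of all genes were called lower.

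Among 27 other genes reported as targets of the fusion or associated with it, 7 fell and 1 rose in the paired fit and 19 did not pass the threshold, beside 6.52% of all genes lower and 4.86% higher. Their median log2 change was −0.21. The largest fall was that of DCX, the neuronal microtubule protein doublecortin, from 44.1 ± 27.3 to 2.31 ± 2.35 CPM (SD, n = 4 each), lower in 4 of 4 numbers (limma adjusted p 1.63e-06 in the paired fit). SLC24A3, a sodium, potassium and calcium exchanger, fell from 14.1 ± 7.74 to 3.09 ± 2.24 CPM (SD, n = 4 each), with a limma adjusted p of 0.000961 in the paired fit. ABAT, the GABA transaminase, fell from 112 ± 59.1 to 46.1 ± 21.2 CPM (SD, n = 4 each), with a limma adjusted p of 0.000469. PRKAR2B, a regulatory subunit of protein kinase A, fell by 1.17 on the log2 scale (limma adjusted p 0.0359), lower in 3 of 4 numbers. The remaining falls were those of NRCAM, BMP5 and SOX8. POU4F1, a neuronal POU factor, was the gene that rose, by 0.46 on the log2 scale (limma adjusted p 0.0400).

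Most of the other reported targets did not pass the threshold. MYCN, a direct target that is part of the fusion's regulatory circuit, measured 13.7, 9.11, 2.46 and 7.79 CPM in control and 29.9, 10.9, 6.28 and 9.18 CPM in siG9a. It was higher in 4 of 4 numbers, with overlapping groups and a limma adjusted p of 0.208 in the paired fit. MYOG, MET, IGF1R, CXCR4 and PDGFRA did not pass either. Without replicate 3 the paired fit called 5 of the 27 lower and 0 higher, beside 4.96% and 2.91% of all genes.

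**Figure D4:**
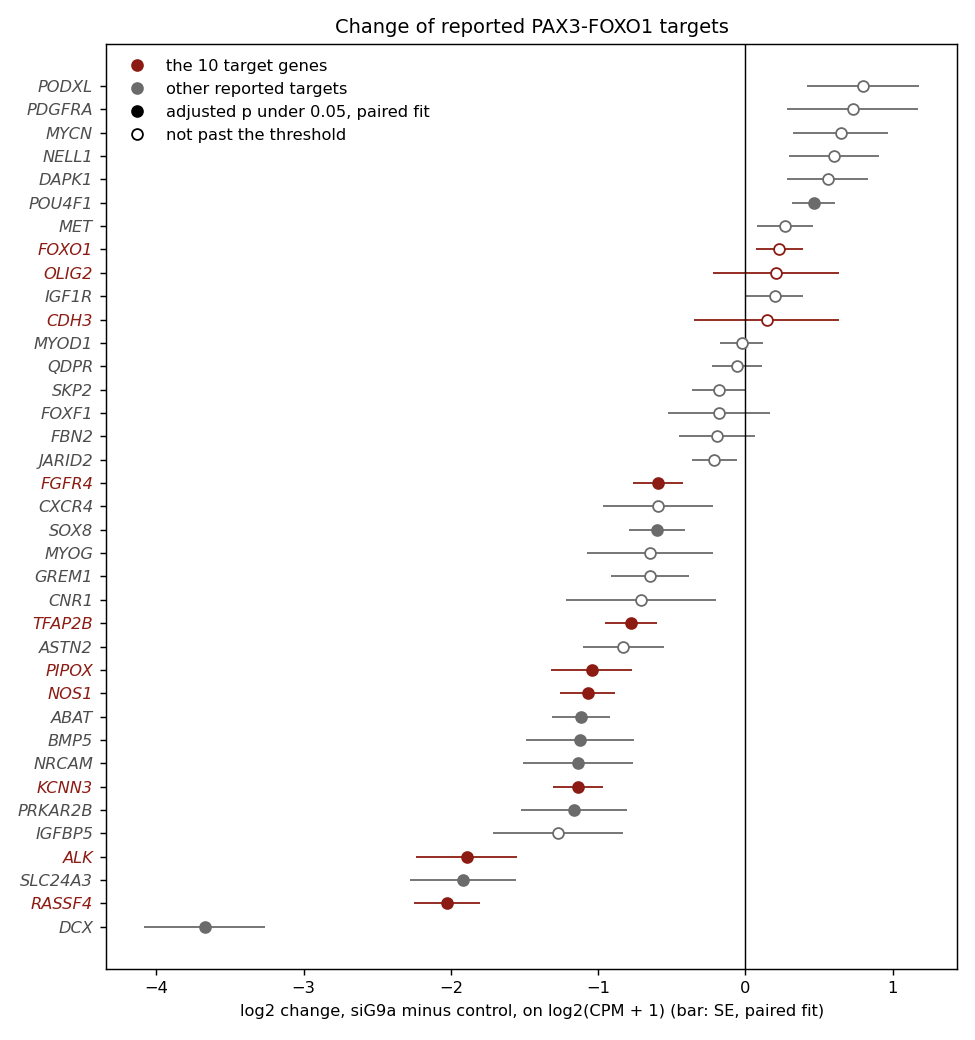
Log2 change, siG9a minus control, on the log2(CPM + 1) scale (horizontal axis, bars are SE of the paired fit) for the 10 genes (dark red) and 27 other reported targets (grey), with filled points past an adjusted p of 0.05 in the paired fit. RASSF4 (−2.03) and ALK (−1.89) lie near the lower end beside SLC24A3, DCX (−3.67) lies beyond them, and FOXO1, OLIG2 and CDH3 lie just above 0.

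Of 16 fusion partners, paralogs of these and cofactors, 1 fell and 1 rose in the paired fit, which is near the 6.52% lower and 4.86% higher of all genes. Their median log2 change was −0.10. PLK1, the mitotic kinase that phosphorylates the fusion protein, rose from 83.9 ± 13.5 to 122 ± 25.5 CPM (SD, n = 4 each), with a limma adjusted p of 0.0263. Its highest control library was at 101.46 CPM and its lowest siG9a library at 101.62 CPM. FOXO6, a paralog of FOXO1, fell by 0.70 on the log2 scale, at the threshold (limma adjusted p 0.0499). RBBP4, a NuRD subunit, was lower in 4 of 4 numbers with a limma adjusted p of 0.171 in the paired fit. Without replicate 3 the paired fit called 1 of the 16 lower and 0 higher, beside 4.96% and 2.91% of all genes.

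Paralogs and pathway partners of the 10 genes were checked from a list of 45, of which 31 averaged 1 CPM or more. In the paired fit 4 of these fell and 0 rose, beside 6.52% of all genes lower and 4.86% higher, with a median log2 change of −0.30. They were SAV1, the Hippo pathway adaptor of the kinases that RASSF proteins bind (62.0 ± 10.2 to 37.9 ± 5.59 CPM), CTNNB1, the β-catenin that cadherins bind (235 ± 31.6 to 162 ± 14.7 CPM), CDH15, the muscle cadherin (158 ± 94.4 to 65.0 ± 41.4 CPM), and CDH1, the epithelial cadherin (7.53 ± 5.74 to 1.96 ± 1.495 CPM; SD, n = 4 each). Their limma adjusted p-values were 0.0140, 0.0147, 5.50e-05 and 0.0171 in the paired fit. SAV1, CTNNB1 and CDH1 had every siG9a library below every control library, as had 3.45% of all genes tested. Without replicate 3 the paired fit called 3 of the list lower, beside 4.96% of all genes. CTNNB1 then missed the threshold (limma adjusted p 0.0522). No tested paralog of FGFR4, RASSF4, ALK, KCNN3 or TFAP2B passed the threshold, and the listed paralogs of NOS1 and OLIG2 were below the filter on low values.

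Of 8 skeletal muscle markers 6 were tested, and 3 of them, CDH15, CHRNA1 and DES, fell in the paired fit, beside 6.52% of all genes. The median log2 change of the 6 was −0.90, close to the −0.91 of the 10 genes. MYOD1, MYOG and CHRND did not pass (limma adjusted p 0.935, 0.370 and 0.712). The paired fit without replicate 3 also called 3 lower, beside 4.96% of all genes. CHRNA1, an acetylcholine receptor subunit, went from 226 ± 114 to 95.4 ± 47.2 CPM, and DES, the muscle intermediate filament desmin, from 188.5 ± 94.5 to 63.8 ± 60.0 CPM (SD, n = 4 each). The muscle sum covered 242 to 1649 CPM in control and 211 to 1230 CPM in siG9a. Whether it had a part in the falls of the targets was not tested.

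The genes whose log2(CPM + 1) followed that of FOXO1 most closely over the 8 libraries, among 8890 other genes averaging 10 CPM or more, were TADA3 (Pearson's r 0.992), TBX15 (0.988), CHRND (0.986), SLC44A2 (0.985), FCRLA (0.984), CCNG2 (0.979), DZIP3 (0.978) and HOXA7 (0.977). These libraries share cells and depth, and all 8 genes were at their low point among the controls in replicate 3. Of the targets, FGFR4 (0.859) and TFAP2B (0.826) followed FOXO1 most closely, then KCNN3 (0.748), PIPOX (0.701), ALK (0.476), NOS1 (0.434) and RASSF4 (0.406). These correlations run over both groups, so a gene's change between the groups also enters them.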

How the data were processed

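The 10 genes and all gene lists were chosen with earlier results of these data known. The authors deposited CPM to 2 decimals for each library, and the submitters' processing notes name FastQC 0.11.8, Trim Galore, STAR 2.5.0a, HTSeq 0.8.0 and edgeR 3.28 and the builds GRCh38 and hg19, without saying which build was counted. In every library 100% of values were whole multiples of 1 read within 0.005 CPM, so reads were recovered (totals 1458825 to 1938665). Replicate pairs within a group had a chi-square of 6.67 to 33.0 per degree of freedom, above sampling noise, and all were kept. Separate cultures are not stated, so p-values without the block measure the spread between these samples. Those of the paired fit measure the spread of the differences within replicate numbers.

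The main test was limma 3.58.1 (R 4.3.3), two-sided, with a trended prior, on log2(CPM + 1) for genes averaging 1 CPM or more, adjusted by Benjamini-Hochberg over all genes at 0.05. Fold changes on this scale understate the change of low genes. The paired fit adds the replicate number. Pairing rests on the numbers in the sample titles and on the correlation across genes of deviations from group means. These correlations were 0.500, 0.104, 0.673 and 0.130 for numbers 1 to 4. For numbers 2 and 4 the highest correlation with another number was 0.144 and 0.0913, so their pairing rests mainly on the titles. The alternatives were pseudocounts, filters, median-ratio scaling, left-out libraries or pairs, a term for replicate 3, and edgeR 4.0.16 and DESeq2 1.42.0 on recovered reads. Median-ratio scaling with the block and leaving out pairs 1, 2 or 4 were added after seeing the data. On simulated paired data (14675 genes, 200 of them changed by 1.5 in log2), limma recovered 94.5% with the block and 30.5% without it. The changed genes all averaged 10 CPM or more. Both libraries of a number were given the same underlying level before the change, so the block was favoured by construction. The simulation therefore cannot tell whether the numbers are true pairs in these data. Named genes were the 10, up to 4 of each list by the paired p, and the 8 most like FOXO1. PAX3, MYOD1, MYCN, PHF12, DEPP1 and other list members were named after their values were seen, and neural, epithelial, fibroblast, endothelial and blood markers were kept mainly to sums. A gene that this rule includes is not reported here.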

Additional observations from a re-analysis of the deposited data

Results flagged for a closer look

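Among named genes, 9 of 68 groups of 4 libraries had a highest or lowest library whose gap to the next, divided by the range, exceeded Dixon's 95% critical value, where chance gives about 3.40. Control replicate 3 was low for FOXO1 (48.6 CPM, the others 209 to 233), NOS1 (111 CPM, the others 325 to 338), MYOD1 (95.3 CPM, the others 817 to 864), DES (47.4 CPM, the others 226 to 248) and SOX8 (23.4 CPM, the others 155 to 175). It was high for CDH3 (4.92 CPM, the others 0 to 0.69). PIPOX was low in siG9a replicate 3 (5.71 CPM, the others 12.6 to 13.4). PRKAR2B was high in siG9a replicate 4 (13.8 CPM, the others 3.63 to 5.16). CDH1 was high in control replicate 4 (16.1 CPM, the others 4.25 to 5.48).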

How the results depend on the processing

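The replicate block and control replicate 3 moved the counts most. Over all genes, limma called 0 without and 1717 with the replicate block, edgeR 0 and 1709, and DESeq2 292 and 936. For the 10 genes the corresponding counts were 0 and 7, 0 and 7, and 3 (ALK, RASSF4, NOS1) and 6 (without FGFR4). No filter gave 18 genes and a term for replicate 3 gave 715, with 0 and 6 of the 10. Without both replicate 3 libraries the counts were 415 and, with the block, 1180, with 5 and 7 of the 10. In the paired fit, leaving out pair 1, 2 or 4 gave 972, 653 and 1392 genes and 5, 4 and 5 of the 10, and median-ratio scaling gave 1692 and 7. Leaving out 1 library without the block gave 0 to 300 genes and 0 to 5 of the 10; the higher values came without control replicate 3, and without siG9a replicate 4 it was 2 genes. The 7 genes that fell kept a negative change in each of the 25 alternatives. Signs turned for genes that were not called. CDH3 was at −0.014 with a pseudocount of 5, −0.25 by edgeR and −0.30 by DESeq2 without the block, −0.092 and −0.19 without pairs 1 and 2, and −0.18 to 0.30 with 1 library left out. OLIG2 was at −0.054 without pair 4. MYOD1 was at 0.11 without pair 2, and PAX3 at 0.033 and 0.017 without pairs 2 and 4. With 1 library left out, FOXO1 ran from −0.31 to 0.59, MYOD1 from −0.81 to 0.61 and PAX3 from −0.55 to 0.24. At this depth CDH3 and OLIG2 rested on 11 reads or fewer in each library.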
